A study of Mus musculus with 13 samples.

Results

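The 6 loci examined here belong to the transforming growth factor beta (TGF-beta) pathway, and their chromatin accessibility was measured in mouse haematopoietic stem cells (HSCs). They are the windows around Tgfbr1, Tgfbr2, Smad2, Smad3, Smad7 and Pmepa1. Their members are the accessible regions whose midpoint lies in a fixed window of the mm9 genome, 104 of the 115295 regions measured. The windows hold 31 regions for Pmepa1, 25 for Smad3, 16 for Smad7, 15 for Tgfbr2, 9 for Tgfbr1 and 8 for Smad2. They are positional windows, and a region in one of them is not thereby assigned to its gene. The loci were chosen by the fold changes and calls of the restricted groups against the multilineage group in these same libraries. Results of the comparison between the restricted groups were also known at that point. The calls and fold changes reported here therefore describe the members and give no independent evidence about them.

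The HSCs came from C57BL/6 bone marrow and were profiled by Omni-ATAC-seq, which tags open chromatin with adapters carried by a transposase. Each transplanted mouse had received a single Vwf+ HSC and was classed by the blood lineages that this cell restored over 16 weeks. Donor-derived HSCs with the phenotype LSK Flt3- CD150+ CD48- CD45.2+ and negative for Gata1 were then sorted, 500 cells per replicate. The groups were multilineage (MUL-HSC, 4 libraries), PEM-restricted, where PEM stands for platelets, erythroid and myeloid cells (PEM-HSC, 6 libraries), and platelet-restricted (PLT-HSC, 3 libraries). All groups thus share the single-cell transplantation, the Vwf+ origin of the founder and the sort, and each recipient's cells descend from 1 founder HSC. Animal ages were not analysed here. Whether the replicates of a group are separate recipients is not stated in the labels, so the tests measure only the spread between these libraries, which may be technical. The sort phenotype was not checked against marker genes, because no mm9 annotation was used.

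TGF-beta ligands bind the type II receptor Tgfbr2, which recruits and phosphorylates the type I receptor Tgfbr1. Tgfbr1 phosphorylates the receptor-regulated SMAD proteins Smad2 and Smad3, which enter the nucleus with Smad4 and regulate transcription. The pathway restrains itself through Smad7, an inhibitory SMAD, and through Pmepa1, a membrane protein induced by the pathway that sequesters receptor-regulated SMADs. In bone marrow, TGF-beta is known as a signal that keeps HSCs quiescent.

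The RefSeq promoter table held 3 of the 6 genes, Tgfbr1, Tgfbr2 and Smad3. These sequences are shown because they are where transcription of both receptors and of Smad3 starts; they run from 250 bases before to 50 bases after the annotated start, 5′ to 3′ on the gene's strand, in build GRCm38.p6. Capitals mark CAGAC or its complement GTCTG, a core of the SMAD-binding element searched on both strands. The positions belong to another build than the accessible regions, so no region was matched to a promoter.
Tgfbr1, plus strand, chr4:47352972-47353271: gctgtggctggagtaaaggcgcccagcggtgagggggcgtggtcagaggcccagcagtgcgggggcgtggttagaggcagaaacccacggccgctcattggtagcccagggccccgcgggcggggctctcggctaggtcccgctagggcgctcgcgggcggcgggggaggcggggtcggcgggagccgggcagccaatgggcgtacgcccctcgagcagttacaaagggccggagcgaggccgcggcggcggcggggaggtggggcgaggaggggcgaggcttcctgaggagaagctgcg
Tgfbr2, minus strand, chr9:116175314-116175613: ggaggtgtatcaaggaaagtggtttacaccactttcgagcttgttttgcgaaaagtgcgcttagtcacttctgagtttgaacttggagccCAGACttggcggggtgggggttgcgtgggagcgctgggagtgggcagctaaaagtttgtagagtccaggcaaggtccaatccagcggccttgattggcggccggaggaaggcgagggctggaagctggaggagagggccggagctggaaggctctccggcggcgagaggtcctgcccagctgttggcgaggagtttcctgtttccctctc
Smad3, minus strand, chr9:63757945-63758244: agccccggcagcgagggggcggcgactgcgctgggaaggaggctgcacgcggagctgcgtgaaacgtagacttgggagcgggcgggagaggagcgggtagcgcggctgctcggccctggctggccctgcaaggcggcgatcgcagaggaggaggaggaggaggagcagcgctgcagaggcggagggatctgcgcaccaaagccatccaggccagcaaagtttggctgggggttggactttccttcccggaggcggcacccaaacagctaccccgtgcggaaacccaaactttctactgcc
The Tgfbr2 promoter held 1 CAGAC and no GTCTG, and the promoters of Tgfbr1 and Smad3 held neither. Of the 32851 promoters of this length in the table, 49.6% held the motif on one strand or the other. The promoters are 74.7% G or C for Tgfbr1, 67.7% for Smad3 and 59.0% for Tgfbr2.

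Accessibility is given as edgeR's CPM, a region's count scaled by the library's TMM-adjusted total over tested regions. A region was tested when it passed a filter on low counts, and called when its adjusted p in the edgeR quasi-likelihood fit over all 59408 tested regions was under 0.05. The filter kept 69 of the 104 members, 66.3%, beside 51.5% of all regions, and the kept members held 94.9% of the members' counts. It passes a region that is high in 1 group only, so counts over the 69 are not counts over all members. The 35 members left out were weak, with mean values of 0.584 to 3.58 CPM over the 13 libraries. Among them the PLT-HSC libraries lay wholly below the MUL-HSC libraries in 6 and wholly above in 2, beside 5.71% and 5.11% of all 55887 regions not tested. Library totals ran from 1307222 to 2831520 counts in MUL-HSC, 1276962 to 3851165 in PEM-HSC and 2378024 to 3307889 in PLT-HSC. Depth was thus uneven between MUL-HSC and PLT-HSC. Between 0.108% and 0.146% of the totals fell in the 6 loci. On the first principal component over all tested regions, MUL-HSC replicates 1 to 4 scored -104, -111, -11.9 and -55.1, so the group was widely spread. Replicate 3 lay nearest to the PEM-HSC and PLT-HSC libraries, which scored -5.28 to 66.2.

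In PLT-HSC, 7 of the 69 tested members were called less accessible than in MUL-HSC and 0 more accessible. Over all tested regions 2.41% were called in this comparison, 1.28% lower and 1.13% higher. In PEM-HSC, 4 of the 69 were called lower than in MUL-HSC and 0 higher, where 0.832% of all tested regions were called, 0.589% lower and 0.242% higher. These 4 regions are among the 7, and regions called lower in both comparisons made up 0.370% of all tested regions. Without MUL-HSC replicate 3, 7 members were called for PLT-HSC and 6 for PEM-HSC, and the calls of the 7 regions were all kept. Over all tested regions that run called 2116 and 1215, beside 1431 and 494 with all libraries. With 1 surrogate variable 0 members were called in either comparison, beside 4 and 1 over all tested regions. With only the libraries of at least 2000000 counts 2 were called for PLT-HSC and 1 for PEM-HSC, beside 275 and 13 over all tested regions. Without other single libraries the counts ran from 3 to 8 and from 1 to 5. The calls over all tested regions then ran from 350 to 2034 and from 61 to 777. The fewest members were called for PLT-HSC without PLT-HSC replicate 1 or 2 and for PEM-HSC without MUL-HSC replicate 1 or 2. Of the 7, 5 lie in the Pmepa1 locus, 1 in the Smad2 locus and 1 in the Tgfbr2 locus. The windows of Tgfbr1, Smad3 and Smad7 held none. The median log2 fold change of the tested members against MUL-HSC was -0.24 in PLT-HSC and -0.10 in PEM-HSC. The corresponding medians over all tested regions were 0.012 and 0.015. Both comparisons share the MUL-HSC libraries. In bulk cells, fewer cells with an open region and less opening per cell cannot be told apart.

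None of the 7 called regions was the strongest of its locus, the region with the highest mean over all libraries. They lay 14.5 to 104 kb from it. The 6 strongest regions were 1189 to 2072 bp wide and ranked at the 90.8th to 99.5th percentile of all tested regions by level. Their log2 fold changes ran from -0.31 to 0.17 in PLT-HSC and from -0.18 to 0.13 in PEM-HSC, both against MUL-HSC. None was called. The called regions were 452 to 1191 bp wide and spanned the 9.69th to 88.7th percentile of level.

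**Figure D1:**
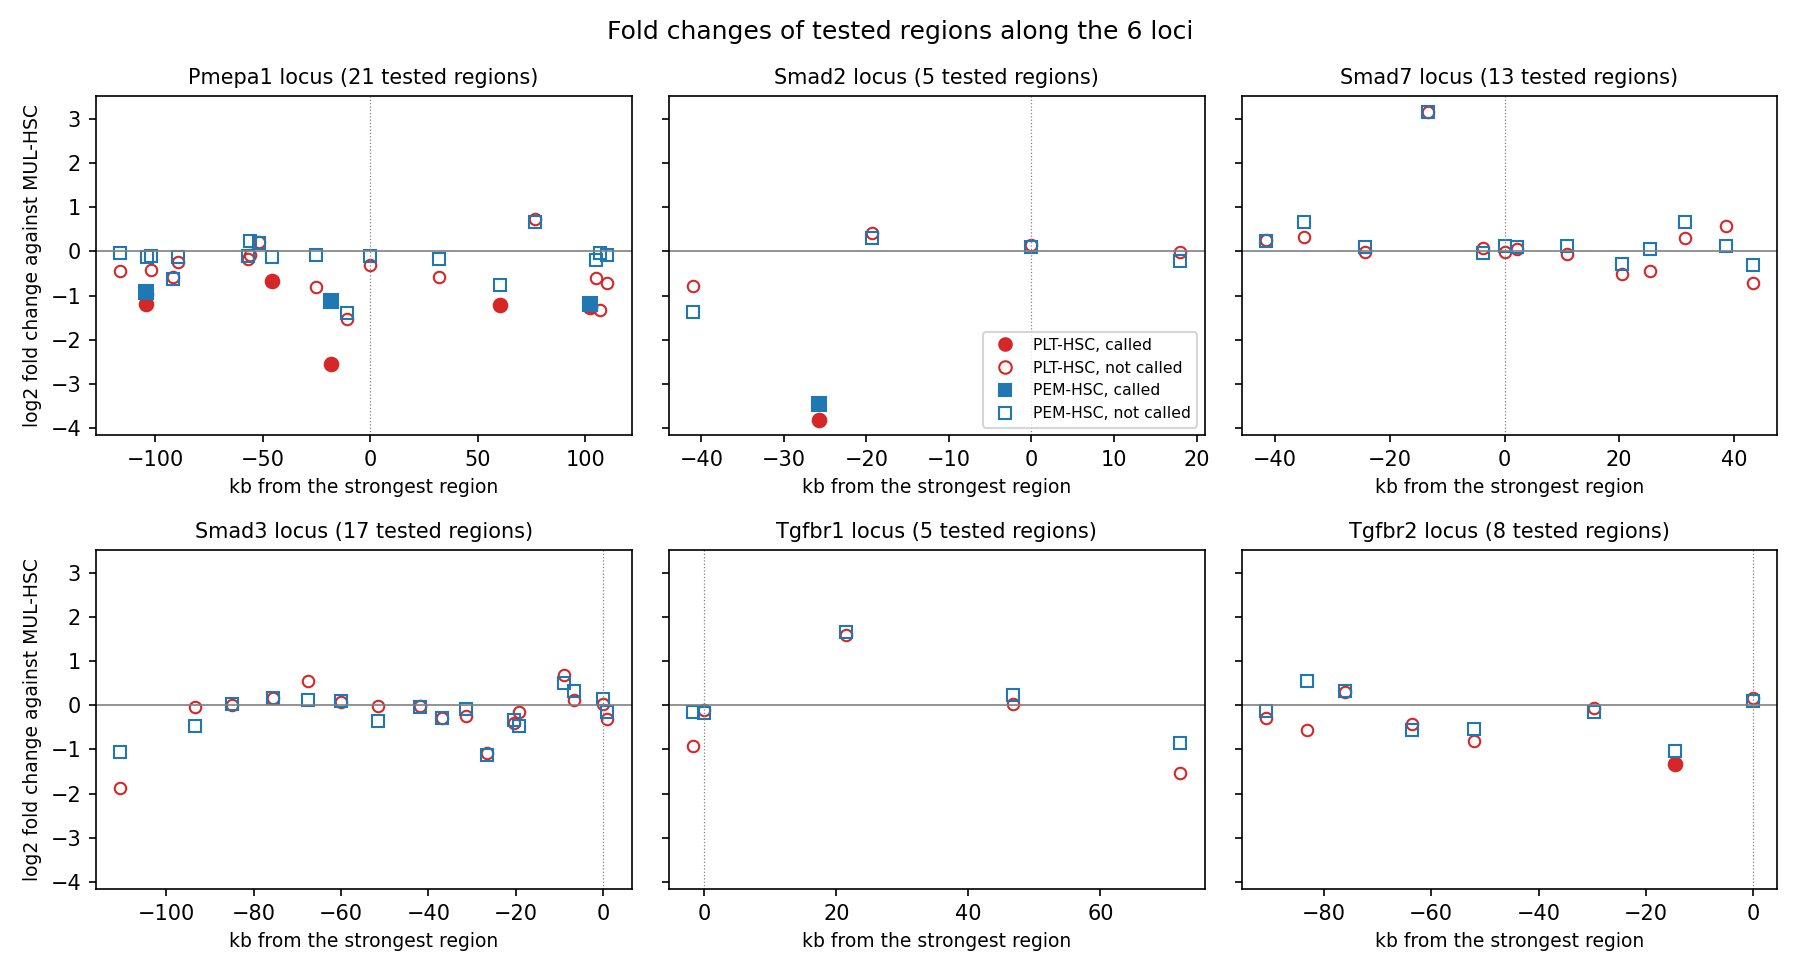
Log2 fold change against MUL-HSC (vertical axis) of each tested region by its distance in kb from the strongest region of its locus (horizontal axis), for PLT-HSC (circles) and PEM-HSC (squares); filled symbols are called. The called regions of the Pmepa1 locus lie on both sides of its strongest region, from -104 to 102 kb, and the strongest regions sit near 0 on the vertical axis.

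Of the receptors, the Tgfbr2 locus held a called region and the Tgfbr1 locus did not. The Tgfbr2 window covers 115 kb of chromosome 9, beside an annotated gene length of 87669 bp. Its called region, chr9:116069231-116070422, lies 14.5 kb on the lower-coordinate side of the strongest one. It measured 38.5, 31.4, 22.6 and 23.6 CPM in the MUL-HSC libraries and 14.0, 7.01 and 12.2 CPM in the PLT-HSC libraries. In PEM-HSC it ranged from 5.15 to 25.0 CPM with a median of 12.3. All PLT-HSC libraries lay below all MUL-HSC libraries, and the highest PEM-HSC library, replicate 6, overlapped them. Its log2 fold change was -1.33 ± 0.32 (SE) for PLT-HSC, called lower, and -1.05 ± 0.27 for PEM-HSC, not called by edgeR. DESeq2 called this region lower in PEM-HSC as well, and edgeR did so with the replicate block and without MUL-HSC replicate 3 or PEM-HSC replicate 6. The PLT-HSC call was lost when any 1 of MUL-HSC replicates 1, 2 or 4 or of the 3 PLT-HSC libraries was left out, with log2 fold changes of -1.53 to -1.11 over all single libraries left out.

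The strongest region of the Tgfbr2 locus, chr9:116083452-116085227, had 41.4 ± 6.04 CPM for MUL-HSC (SD, n = 4), 43.4 ± 3.27 for PEM-HSC (SD, n = 6) and 45.8 ± 8.41 for PLT-HSC (SD, n = 3). The groups overlapped there. Summed over its 15 regions, the Tgfbr2 locus reached 152 to 207 CPM in MUL-HSC, 130 to 160 in PEM-HSC and 121 to 142 in PLT-HSC. The PLT-HSC sums lay below all MUL-HSC sums, with a mean at 77.8% of the MUL-HSC mean, while the PEM-HSC sums overlapped both groups. MUL-HSC replicate 2 had the highest sum, 207 CPM, beside 152 to 158 in the other 3.

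The Tgfbr1 window of 90 kb on chromosome 4 was dominated by its strongest region, chr4:47365405-47367143, which took 70.8% of the locus's counts. That region had 91.1 ± 8.28 CPM for MUL-HSC, 80.4 ± 11.8 for PEM-HSC and 83.7 ± 3.01 for PLT-HSC (SD; n = 4, 6 and 3), with overlapping libraries. No Tgfbr1 region was called by edgeR or by DESeq2; at an unadjusted p under 0.05, edgeR gave 3 of 5 tested regions for PLT-HSC (2 lower, 1 higher) and 2 for PEM-HSC (1 lower, 1 higher), against 15.4% and 13.6% of all tested regions in either direction and 7.93% and 7.45% with lower values. The Tgfbr1 region of smallest p over the 3 comparisons, chr4:47438084-47438677, measured 6.42, 9.92, 6.52 and 3.81 CPM in MUL-HSC and 2.93, 1.40 and 1.98 in PLT-HSC. These 2 groups did not overlap, and the PEM-HSC libraries, 1.72 to 5.09 CPM with a median of 3.27, overlapped both. Its log2 fold changes were -1.54 ± 0.46 for PLT-HSC and -0.85 ± 0.37 for PEM-HSC. The locus sum was 126 ± 13.3 CPM for MUL-HSC, 116 ± 13.2 for PEM-HSC and 115 ± 6.80 for PLT-HSC, differences smaller than the SD within MUL-HSC.

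Among the receptor-regulated SMADs, the Smad2 locus held the most reduced member of all 6 loci. The region chr18:76375444-76375896 lies 25.8 kb on the lower-coordinate side of the strongest region of its window. It measured 10.9, 9.92, 8.53 and 13.3 CPM in the MUL-HSC libraries, 0.422 to 1.88 CPM with a median of 0.859 across PEM-HSC, and 0.325, 0 and 1.65 CPM in PLT-HSC. Every PEM-HSC and PLT-HSC library lay below every MUL-HSC library. The counts behind these values were 81 for MUL-HSC, 13 for PEM-HSC and 6 for PLT-HSC. It was called lower in both, with log2 fold changes of -3.45 ± 0.46 in PEM-HSC and -3.81 ± 0.59 in PLT-HSC, that is 10.9-fold and 14.0-fold. PLT-HSC replicate 3 held 5 of the 6 PLT-HSC counts, and without it the log2 fold change was -5.45. Both calls were kept when any single library was left out and lost with 1 surrogate variable. Only the MUL-HSC libraries, where it is high, carried this region past the filter, so its calls are no independent support. It was not among the regions tested with a mean of at least 20 counts.

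The Smad2 window is 130 kb long, beside a gene length of 70659 bp, and held 5 tested regions. Its strongest region, chr18:76400604-76402279, took 69.4% of the counts and had 104 ± 6.45 CPM for MUL-HSC, 112 ± 24.7 for PEM-HSC and 115 ± 21.1 for PLT-HSC. The groups overlapped there. The locus sum was 171 ± 18.2 CPM for MUL-HSC, 153 ± 22.2 for PEM-HSC and 165 ± 19.1 for PLT-HSC, and the groups' ranges overlapped.

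The Smad3 locus, with 17 tested regions in 140 kb, showed no called region with edgeR or DESeq2. At an unadjusted p under 0.05, edgeR gave 3 of its regions for PLT-HSC and 4 for PEM-HSC, all with lower values, beside the same 7.93% and 7.45% of all tested regions. The strongest region, chr9:63605423-63606612, had 63.4 ± 10.4 CPM for MUL-HSC, 69.5 ± 7.11 for PEM-HSC and 64.6 ± 3.03 for PLT-HSC. The Smad3 region of smallest p, chr9:63579309-63579622, measured 12.8, 7.44, 3.01 and 5.72 CPM in MUL-HSC, 1.15 to 4.58 CPM with a median of 3.10 across PEM-HSC, and 3.58, 3.27 and 2.97 CPM in PLT-HSC. MUL-HSC replicate 3 overlapped both other groups there, and without it the region was called lower in PEM-HSC, with a log2 fold change of -1.40 beside -1.12 with all libraries. The locus sum was 366 ± 26.7 CPM for MUL-HSC, 330 ± 23.6 for PEM-HSC and 335 ± 18.1 for PLT-HSC, and ranges overlapped.

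Of the inhibitors, the Smad7 locus held no called region. None of its 13 tested regions was called by edgeR or DESeq2, and edgeR gave 3 for PLT-HSC, all with lower values, and 0 for PEM-HSC at an unadjusted p under 0.05, beside the same 7.93% and 7.45% of all tested regions with lower values. The strongest region, chr18:75526066-75527574, had 71.1 ± 4.58 CPM for MUL-HSC, 77.5 ± 7.67 for PEM-HSC and 69.5 ± 5.76 for PLT-HSC, with overlapping libraries. The region of smallest p over the 3 comparisons, chosen by PLT-HSC against PEM-HSC, was chr18:75551713-75552716. It measured 27.3, 19.1 and 27.0 CPM in PLT-HSC, below the lowest MUL-HSC library at 30.8 CPM and the lowest PEM-HSC library at 30.4 CPM. Its log2 fold changes against MUL-HSC were -0.44 ± 0.16 for PLT-HSC and 0.05 ± 0.13 for PEM-HSC. The locus sum was 268 ± 12.4 CPM for MUL-HSC, 279 ± 18.9 for PEM-HSC and 247 ± 17.2 for PLT-HSC. The highest PLT-HSC sum, 257.1 CPM, lay just under the lowest MUL-HSC sum, 257.8 CPM.

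The Pmepa1 locus held 5 of the 7 called members, spread over more than 200 kb. Its window covers 240 kb of chromosome 2, 4.59 times the annotated gene length of 52274 bp, so most of it lies outside Pmepa1. In the GRCm38.p6 gene order the nearest protein-coding neighbours are Zbp1, a sensor of left-handed nucleic acids, and 1700021F07Rik. Of the 21 tested regions, 19 had a negative log2 fold change in PLT-HSC and 18 in PEM-HSC, beside 48.6% and 48.1% of all tested regions. The median over the 21 was -0.60 in PLT-HSC and -0.12 in PEM-HSC.

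The called Pmepa1 region of smallest p, chr2:173082824-173083639, lies 18.1 kb on the lower-coordinate side of the strongest region. It measured 16.7, 15.7, 15.5 and 22.5 CPM in MUL-HSC, 5.73 to 13.1 CPM with a median of 7.59 across PEM-HSC, and 2.28, 1.87 and 4.62 CPM in PLT-HSC. The 3 groups did not overlap, with PEM-HSC between the others. It fell by 2.55 ± 0.34 on the log2 scale in PLT-HSC, 5.86-fold, and by 1.11 ± 0.25 in PEM-HSC, 2.16-fold, and both were called. The log2 difference between PLT-HSC and PEM-HSC, -1.44 ± 0.34, was not called. The PEM-HSC call was lost without MUL-HSC replicate 1, 2 or 4 or PEM-HSC replicate 1 or 5, with log2 fold changes of -1.25 to -0.96 over all single libraries left out, whereas the PLT-HSC call was kept.

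At the lower-coordinate end of the locus, 104 kb from the strongest region, chr2:172996722-172997472 was called lower in both groups. It measured 43.0, 47.1, 27.1 and 31.3 CPM in MUL-HSC, 15.5 to 23.5 CPM with a median of 19.4 across PEM-HSC, and 14.0, 19.1 and 14.8 CPM in PLT-HSC. All libraries of both restricted groups lay below all MUL-HSC libraries, and PEM-HSC and PLT-HSC overlapped. The log2 fold changes were -1.19 ± 0.20 in PLT-HSC and -0.91 ± 0.17 in PEM-HSC; the PEM-HSC call was lost without MUL-HSC replicate 1 or 2 (-0.83 and -0.79). With only the libraries of at least 2000000 counts the PLT-HSC call was lost too (-0.90).

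At the other end, 102 kb from the strongest region, chr2:173203022-173203820 was also called lower in both. It measured 30.8, 17.4, 14.6 and 20.6 CPM in MUL-HSC, 5.73 to 13.8 CPM with a median of 7.87 across PEM-HSC, and 6.83, 5.61 and 13.2 CPM in PLT-HSC. Neither restricted group overlapped MUL-HSC. The log2 fold changes were close, -1.24 ± 0.31 in PLT-HSC and -1.19 ± 0.26 in PEM-HSC. The PLT-HSC call was lost without replicate 1 or 4 of MUL-HSC or replicate 1 or 2 of PLT-HSC (-1.26 to -1.02), and the PEM-HSC call without MUL-HSC replicate 1, 2 or 4 or PEM-HSC replicate 1, 2 or 5 (-1.25 to -0.96).

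The other 2 called Pmepa1 regions were called in PLT-HSC and not in PEM-HSC. The region chr2:173055055-173056016 measured 48.1, 40.5, 47.7 and 39.7 CPM in MUL-HSC, 35.0 to 45.2 CPM with a median of 40.8 across PEM-HSC, and 28.3, 20.6 and 32.7 CPM in PLT-HSC. The PLT-HSC libraries lay below those of both other groups, which overlapped each other. Its log2 fold changes against MUL-HSC were -0.67 ± 0.15 in PLT-HSC and -0.12 ± 0.13 across PEM-HSC, and the difference between PLT-HSC and PEM-HSC itself, -0.55 ± 0.14, was not called. The PLT-HSC call was lost without replicate 1 of MUL-HSC or either of replicates 1 and 2 of PLT-HSC (-0.69 to -0.52).

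The region chr2:173161142-173161972 measured 11.5, 16.5, 11.03 and 12.6 CPM in MUL-HSC, 5.16 to 9.34 CPM with a median of 7.34 across PEM-HSC, and 5.21, 5.61 and 5.61 CPM in PLT-HSC. Here PEM-HSC and PLT-HSC overlapped and both lay below MUL-HSC, with log2 fold changes of -1.21 ± 0.28 in PLT-HSC and -0.76 ± 0.23 in PEM-HSC. The PLT-HSC call was lost without replicate 2 or 4 of MUL-HSC or replicate 1 or 2 of PLT-HSC (-1.23 to -1.11).

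**Figure D2:**
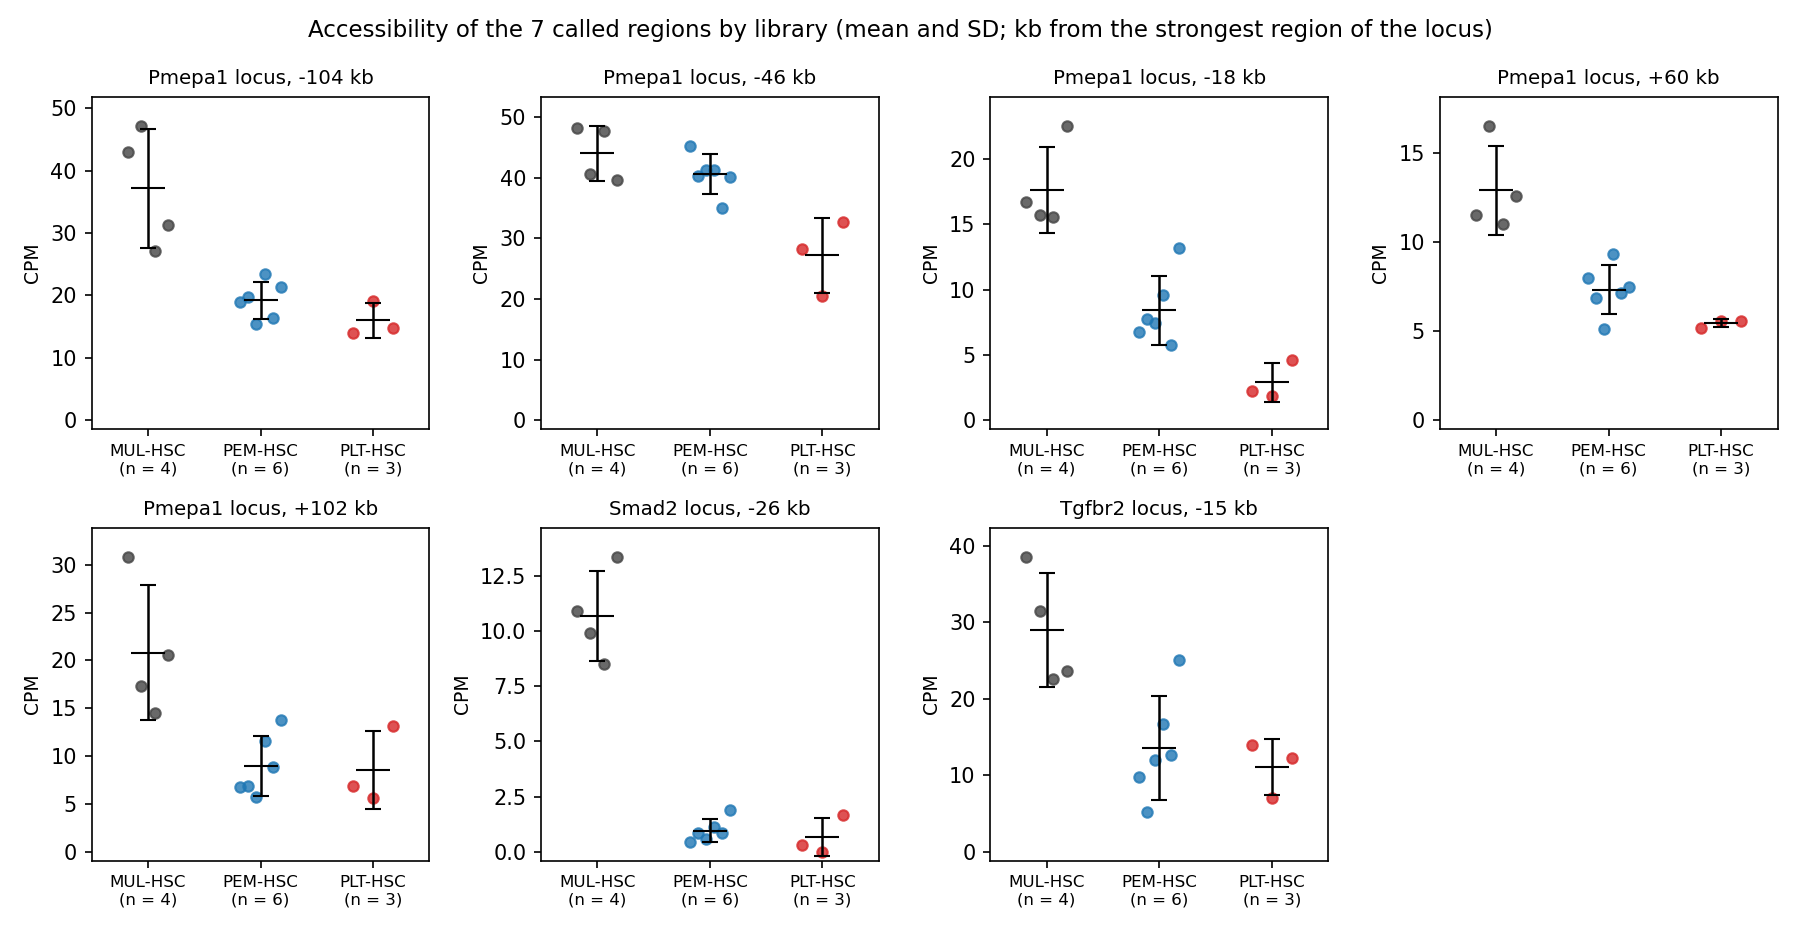
CPM (vertical axis) of the 7 called regions in each library (points) by group, with the group mean and SD (black). MUL-HSC libraries lie above PLT-HSC libraries in all 7 panels; in the Smad2 panel the values are 8.53 CPM or more in MUL-HSC and at most 1.88 CPM elsewhere.

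The strongest region of the Pmepa1 locus, chr2:173100263-173102335, differed less than these. It measured 52.0, 76.1, 57.2 and 54.9 CPM in MUL-HSC, 51.6 to 61.8 CPM with a median of 55.3 across PEM-HSC, and 49.5, 54.7 and 40.2 CPM in PLT-HSC. The 3 groups overlapped, and the log2 fold changes of -0.31 ± 0.13 in PLT-HSC and -0.10 ± 0.12 in PEM-HSC were not called. It took 18.5% of the locus's counts, a smaller share than the strongest regions of the other 5 loci, which took 19.5% to 70.8%.

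Summed over its 31 regions, the Pmepa1 locus had 363, 408, 329 and 342 CPM in MUL-HSC, 260 to 317 CPM with a median of 301 across PEM-HSC, and 223, 243 and 234 CPM in PLT-HSC. The order was MUL-HSC, then PEM-HSC, then PLT-HSC, and no neighbouring groups overlapped. The means were 360 ± 34.4, 294 ± 23.8 and 233 ± 10.4 CPM (SD; n = 4, 6 and 3), so that PEM-HSC stood at 81.6% and PLT-HSC at 64.8% of MUL-HSC. Without the 5 called regions the sums were 228 ± 28.4, 209 ± 15.9 and 173 ± 15.0 CPM, the order of the means was the same, and only MUL-HSC and PLT-HSC stayed apart (at least 212 and at most 191 CPM). Among the 6 loci, the Pmepa1 sum was the one in which all 3 groups were apart.

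**Figure D3:**
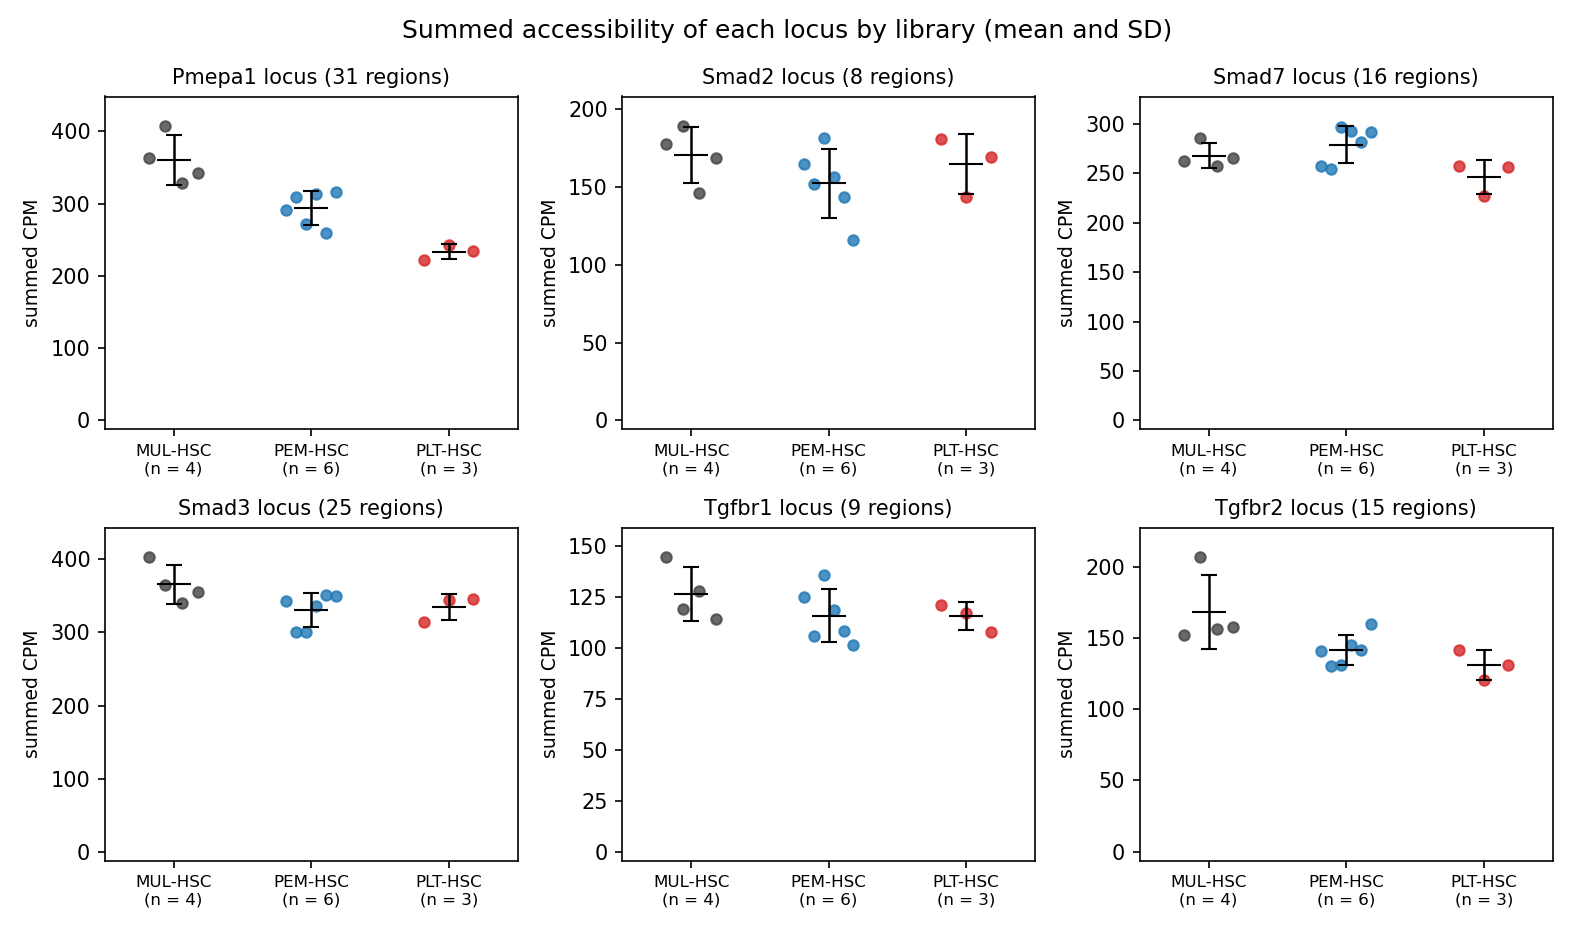
Summed CPM of all regions of each locus (vertical axis) in each library (points) by group, with the group mean and SD (black). In the Pmepa1 panel the groups do not overlap, from 329 CPM or more in MUL-HSC to at most 243 CPM in PLT-HSC, while in the Smad2, Smad3 and Tgfbr1 panels all groups overlap.

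PLT-HSC and PEM-HSC were also compared directly. The loci were chosen with results of this comparison known, so its counts only describe the members. With edgeR 0 of the 69 tested members were called, and DESeq2 called 0 as well, where 0.00168% of all tested regions, 1 region, was called by edgeR. At an unadjusted p under 0.05, 7 members passed, all lower in PLT-HSC, beside 4.61% of all tested regions in either direction and 2.16% lower. Of these, 4 lie in the Pmepa1 locus and 1 each in the Smad7, Tgfbr1 and Tgfbr2 loci. The libraries of the 2 groups did not overlap in 4 of the 69 tested members, all lower in PLT-HSC, namely 3 of the Pmepa1 locus and 1 of the Smad7 locus, beside 2.29% of all tested regions in either direction and 0.968% lower. Among the 35 members not tested, PLT-HSC lay wholly above PEM-HSC in 2, 1 each in the Smad3 and Tgfbr2 loci, and wholly below in 0, beside 1.49% and 0.803% of all regions not tested.

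Counting separation rather than calls, PLT-HSC lay wholly below MUL-HSC in 17 of the 69 tested members and wholly above in 0, where 13.2% of all tested regions were apart in either direction and 6.56% were lower. The 17 fell in every locus, with 8 in Pmepa1, 2 each in Smad3, Smad7, Tgfbr1 and Tgfbr2 and 1 in Smad2. PEM-HSC lay wholly below MUL-HSC in 7 of the 69 tested members and wholly above in 0. Over all tested regions 3.59% were apart in either direction and 2.08% were lower. Of the 7, 5 lie in the Pmepa1 locus and 1 each in the Smad2 and Smad3 loci. Among the 35 members not tested, PEM-HSC lay wholly below MUL-HSC in 3 and wholly above in 0. The shares over all regions not tested were 1.41% and 0.864%.

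Some members had values above MUL-HSC, and none of these was called with all libraries. The regions given here were chosen after their values were seen. In the Tgfbr1 locus, chr4:47387544-47388015 had 1.93 ± 1.44 CPM for MUL-HSC, 5.91 ± 2.83 for PEM-HSC and 6.00 ± 3.83 for PLT-HSC, and both restricted groups overlapped MUL-HSC. Its log2 fold change in PLT-HSC was 1.58 ± 0.60, and without PLT-HSC replicate 3 it was 2.05 and called higher. In the Pmepa1 locus, chr2:173177374-173178352 had the highest log2 fold change of the locus in PLT-HSC, 0.72 ± 0.40.

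Spread within groups was described as well. The median biological coefficient of variation, edgeR's estimate of spread beyond counting noise, was 19.1% over the 69 tested members and 18.4% over all tested regions. The strongest regions of the 6 loci had 8.28% to 13.6%. After subtracting each group's mean, the log2 CPM of the 5 called Pmepa1 regions correlated over the 13 libraries with Pearson's r of -0.24 to 0.72 over 10 pairs, with a median of 0.31. With group means left in, r was 0.47 to 0.93. The 11 pairs of called regions from different loci had within-group values of 0.04 to 0.90 with a median of 0.38. Among the Pmepa1 pairs, the highest within-group value joined the regions 18.1 kb below and 102 kb above the strongest one. These libraries share depth and group, so the values are descriptions.

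The regions elsewhere whose log2 CPM over the 13 libraries most resembled chr2:173082824-173083639 lay on other chromosomes. They were chr10:7696273-7696709 (Pearson's r 0.98), chr3:105456371-105457217 (0.95) and chr13:100272948-100274036 (0.95), picked as the highest of all tested regions outside the 6 loci. The chromosome 10 region had 9.48 ± 0.914 CPM for MUL-HSC, 4.35 ± 2.44 for PEM-HSC and 1.25 ± 1.204 for PLT-HSC. Its r after subtracting group means was 0.96, beside 0.64 and 0.70 for the other two.

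Singled out after their values were seen, 2 members of chromosome 18 varied within groups far more than the rest, ranking 33rd and 46th of 59408 in dispersion. In the Smad2 locus, chr18:76360025-76360811 measured 23.1, 34.7, 1.003 and 14.1 CPM in MUL-HSC replicates 1 to 4. In PEM-HSC replicates 1, 2 and 4 it measured 8.45, 27.5 and 9.90 CPM, and replicates 3, 5 and 6 held 0 counts. In PLT-HSC it measured 12.7, 0 and 15.5 CPM. So 8 libraries held 20 to 47 counts and 5 held at most 2, in a split that crosses all 3 groups; a count of 0 allows up to 3 counts, 0.859 to 1.88 CPM in the 4 libraries at 0. The strongest Smad2 region held 87.6 to 157 CPM over all 13 libraries.

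In the Smad7 locus, chr18:75513266-75513678 had almost no counts in most libraries. It held 29 counts in PEM-HSC replicate 5, 11 in PEM-HSC replicate 6 and 22 in PLT-HSC replicate 3, or 8.31, 6.88 and 7.26 CPM. The other 10 libraries held at most 2 counts, and 7 of them 0. PEM-HSC replicates 5 and 6 held 0 counts at the Smad2 region, whereas PLT-HSC replicate 3 was high at both. The Smad7 region had log2 fold changes of 3.15 ± 1.96 in PLT-HSC and 3.16 ± 1.82 in PEM-HSC, which rest on these 3 libraries and were not called. Recipient, founder clone and library were not told apart by the labels, and their part in these values was not tested.

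**Figure D4:**
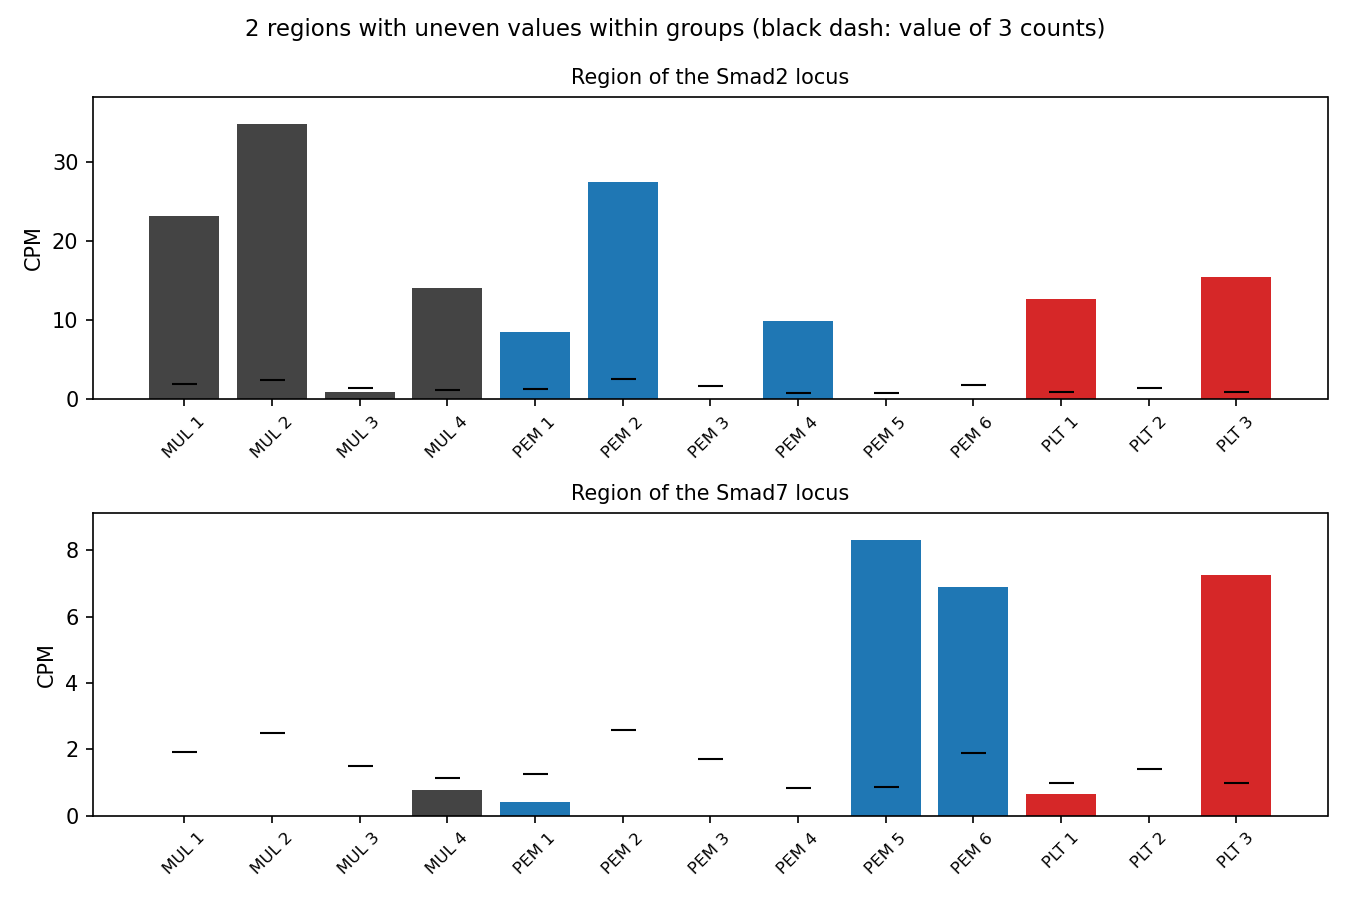
CPM (vertical axis) in each of the 13 libraries (bars, grey for MUL-HSC, blue for PEM-HSC, red for PLT-HSC) at the uneven region of the Smad2 locus (upper panel) and that of the Smad7 locus (lower panel); the black dash is the value of 3 counts. In the upper panel 8 libraries stand at 8.45 CPM or more and 5 at or under 1.003 CPM, and in the lower panel 3 libraries stand at 6.88 CPM or more.

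The windows end at round positions, and how their ends were set is not given in the sources here. Mean values of the regions nearest the ends on the outside differed in both directions. Only some of the ends are given here, without calls. Beyond the upper end of the Pmepa1 window by 12.4 kb, mean values were 4.43, 2.73 and 1.37 CPM for MUL-HSC, PEM-HSC and PLT-HSC, beside 6.07, 6.01 and 3.94 CPM in the last region inside. Beyond the lower end of the Tgfbr1 window by 17.2 kb they were 12.2, 7.57 and 5.08 CPM, beside 6.86, 6.10 and 3.41 CPM inside. Beyond the lower end of the Smad2 window by 29.1 kb the order was the opposite, with 11.9, 14.2 and 17.7 CPM. The first region inside that end, the uneven Smad2 region above, had 18.2, 7.64 and 9.40 CPM. The order was also the opposite beyond the upper end of the Smad3 window by 2.81 kb, with 3.45, 4.51 and 5.96 CPM. The last region inside that end had 23.6, 20.6 and 18.8 CPM.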

How the data were processed

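Omni-ATAC-seq libraries of 13 samples were analysed from 1 table of raw counts per accessible region, as deposited by the authors. Per the submitters' processing notes, the tools were MACS2, Picard, SAMtools, Bowtie2, FastQC and Trim Galore, on mm9. Their versions and settings, the counting tool, pooling for peak calling, handling of duplicates and any shift of read ends are not given in the sources here. If regions were called mainly in deep libraries, regions open in shallow ones would be under-represented.

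Counts were analysed in R 4.3.3 with edgeR 4.0.16: filterByExpr by group (91.4% of counts kept), TMM, 1 robust quasi-likelihood fit of all 13 libraries, two-sided tests, Benjamini-Hochberg adjustment over all 59408 tested regions, threshold 0.05. SE is the fold change over the root of F. Log2 CPM used a prior count of 2. Members, lists and alternatives were chosen with earlier results of these data known. Named regions are, per locus, the strongest, the called ones (at most 8) or else that of smallest p. Others were picked by likeness, by position at the window ends or after their values were seen. All 24 pairs of same-group libraries differed beyond sampling noise (chi-square per degree of freedom 1.44 to 2.23). Zero limits cover counting error only. Alternatives were DESeq2 1.42.0, totals alone, no filter, a mean of 20 counts, a fit of only the compared groups, a replicate block, sva 3.50.0 with 1 surrogate variable, libraries of at least 2000000 counts, and leaving out each library. Gene lengths and neighbours come from RefSeq GRCm38.p6, and other genes of the pathway were not analysed here.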

Additional observations from a re-analysis of the deposited data

Results flagged for a closer look

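Within MUL-HSC and PEM-HSC, 3 of 44 sets of values had 1 library far from the rest of its group. Chance alone marks about 1 in 20. PLT-HSC was not screened. The sets are not independent, since a locus sum includes the regions of that locus. At chr2:173082824-173083639 of the Pmepa1 locus, MUL-HSC replicate 4 had 22.5 CPM beside 15.5 to 16.7 in the other 3 MUL-HSC libraries. At the strongest Tgfbr2 region, MUL-HSC replicate 2 had 50.4 CPM beside 37.9 to 39.3. The summed Tgfbr2 locus in the same library was 207 CPM beside 152 to 158, and the log2 ratio of PLT-HSC to MUL-HSC means at that locus, -0.36, became -0.25 without it.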

How the results depend on the processing

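No region called with all libraries changed direction in any alternative run. A single member was called higher in an alternative, the Tgfbr1 region chr4:47387544-47388015 in PLT-HSC without PLT-HSC replicate 3 (2.05). The Tgfbr2 region chr9:116031728-116033050 was not called with all libraries, with a log2 fold change of -0.81 in PLT-HSC. It was called lower in PLT-HSC with no filter, with only the compared groups, and without PEM-HSC replicate 3 or 4. The number of members called for PLT-HSC against MUL-HSC was 7; it was 0 with 1 surrogate variable and 2 with the libraries of at least 2000000 counts alone, which keep 2 MUL-HSC libraries, and 3 to 8 with each library left out (3 without PLT-HSC replicate 1 or 2, 4 without MUL-HSC replicate 1 or 4). For PEM-HSC against MUL-HSC it was 4; it was 2 with the replicate block, 0 with 1 surrogate variable, 1 with the libraries of at least 2000000 counts and 1 to 6 with each library left out (1 without MUL-HSC replicate 1 or 2, 2 without MUL-HSC replicate 4 or PEM-HSC replicate 1 or 5). For PLT-HSC against PEM-HSC it was 0 in every alternative. The absolute correlation of the surrogate variable with principal component 1 was 0.996, and 65.7% of its variance lay between groups. With it the log2 fold changes of the called regions ran from -3.31 (Smad2) to -0.36 (Pmepa1 173203022, -1.24 without it) in PLT-HSC, where Tgfbr2 116069231 went from -1.33 to -0.40 and Pmepa1 172996722 from -1.19 to -0.68. In PEM-HSC they ran from -3.04 (Smad2) to -0.46 (Pmepa1 173203022, -1.19 without it). Over all tested regions the same variable left 4 calls for PLT-HSC and 1 for PEM-HSC, and the replicate block left 682 and 108 of 1431 and 494. The libraries of at least 2000000 counts alone left 275 and 13. Leaving out each library gave 350 to 2116 and 61 to 1215. The replicate numbers did not pair the libraries. After subtracting each group's mean from log2 CPM over all tested regions, same-numbered libraries of different groups correlated at -0.14 to 0.099 over 10 pairs. On these values, 0 of 11 libraries correlated best with their own number among libraries of other groups. Locus sums had 15 alternatives each, of which 13 left out 1 library and the others used totals alone or only tested regions. In all of them the log2 ratio moved by less than the larger SD between replicates. Leaving out 1 library can hardly move a mean further than that, so no stability is read from it. The surrogate variable, the replicate block and the cut at 2000000 counts were not run on the sums. Ratios lay on both sides of 0 for Smad2 in PLT-HSC against MUL-HSC (-0.13 to 0.04). Between PLT-HSC and PEM-HSC they did so for Smad3 (-0.02 to 0.06) and Tgfbr1 (-0.05 to 0.04). Depth limits the weak members, since 3 counts are up to 2.58 CPM.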
